A study of Homo sapiens with 17 samples.

Results

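The mRNA levels of 10 genes that control the G1 phase of the cell cycle were examined in Ishikawa cells, a human endometrial adenocarcinoma line of epithelial origin. The genes were chosen by name from the 60662 genes of the count table: the D-type cyclins CCND1, CCND2 and CCND3, the E-type cyclins CCNE1 and CCNE2, the kinases CDK4 and CDK6, and the CIP/KIP inhibitors CDKN1A, CDKN1B and CDKN1C. All 10 passed the filter on low counts in every comparison. The cells were grown in medium with charcoal-stripped serum and fell into 4 groups: control cultures with no treatment (n = 3), cultures given the part of the vehicle called Nap in the labels (Nap only, n = 2), vehicle control cultures, whose titles name Nap and ethanol (70% ethanol in the labels, n = 3), and cultures given Nap and progesterone (P4 treated, n = 3). Treatment lasted 24 h in the last 3 groups. What Nap stands for is not given in the sources used here. The labels name ethanol for the vehicle control alone, so a difference of P4 treated from vehicle control cannot be told apart from a difference in ethanol. The P4 dose is not given alike in all places, as 10 µg/ml in some and as up to 1.0 mg/ml in others, the labels among them, and the strength of the ethanol differs between places too. A further 6 cultures, treated with recombinant human PSAT1 with or without progesterone, had titles that contradict their column names, and they entered no comparison.

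A cell leaves G1 when D-type cyclins bind CDK4 or CDK6 and phosphorylate the retinoblastoma protein, which frees E2F factors to switch on genes of DNA synthesis, CCNE1 and CCNE2 among them. The E-type cyclins then activate CDK2. The products of CDKN1A (p21), CDKN1B (p27) and CDKN1C (p57) bind cyclin-CDK complexes and restrain the CDK2 ones. In the endometrium, progesterone is known to oppose the proliferation that oestrogen drives in the epithelium. Much of the control of these proteins, of p27 above all, is by degradation, which mRNA levels do not show.

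Start-site windows of RefSeq (GRCh38.p14, 250 bases before to 50 after a start) were read for 6 members, CCND3, CCNE1, CDK4, CDK6, CDKN1A and CDKN1B, which have 9 windows in all. Windows of CCND1, CCND2, CCNE2 and CDKN1C were not read. The 250 bases before the start are shown for the 2 inhibitors that were higher after P4, for a cyclin that was lower and for a kinase whose level was not called. They are written 5′ to 3′ on the gene's strand, and capitals mark the GC box GGGCGG, the CCAAT box CCAAT and the E-box CACGTG on either strand.
CDKN1A, chr6:36678464-36678713, plus strand: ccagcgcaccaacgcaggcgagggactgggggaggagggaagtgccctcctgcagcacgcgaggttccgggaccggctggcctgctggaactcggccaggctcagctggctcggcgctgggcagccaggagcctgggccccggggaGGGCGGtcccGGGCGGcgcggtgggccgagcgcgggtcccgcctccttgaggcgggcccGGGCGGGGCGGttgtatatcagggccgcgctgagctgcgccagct
CDKN1B, chr12:12717118-12717367, plus strand: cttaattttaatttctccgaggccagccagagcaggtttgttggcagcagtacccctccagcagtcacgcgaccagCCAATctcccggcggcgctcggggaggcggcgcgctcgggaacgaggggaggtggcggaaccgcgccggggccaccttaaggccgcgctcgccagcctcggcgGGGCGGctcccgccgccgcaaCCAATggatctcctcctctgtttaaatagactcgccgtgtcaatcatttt
CCNE1, chr19:29811741-29811990, plus strand: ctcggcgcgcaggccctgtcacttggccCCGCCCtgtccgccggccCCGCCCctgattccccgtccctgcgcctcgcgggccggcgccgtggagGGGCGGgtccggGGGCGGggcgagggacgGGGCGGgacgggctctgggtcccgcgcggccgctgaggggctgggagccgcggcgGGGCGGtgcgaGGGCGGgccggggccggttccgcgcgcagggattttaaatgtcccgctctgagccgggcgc
CDK4, chr12:57752311-57752560, minus strand: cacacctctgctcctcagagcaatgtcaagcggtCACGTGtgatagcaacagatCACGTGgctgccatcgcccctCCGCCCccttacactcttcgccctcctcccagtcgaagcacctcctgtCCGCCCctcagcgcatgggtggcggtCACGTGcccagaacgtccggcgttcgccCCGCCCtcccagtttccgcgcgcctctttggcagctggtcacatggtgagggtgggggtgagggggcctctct

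In the whole windows of 300 bases, GC boxes were counted 7 times for CCNE1, 4 times for CDKN1A (2 of them sharing a base), 3 times for CDK4 and 1 time for CDKN1B. At least 1 GC box is held by 45.0% of the 35116 windows of the table. CDKN1B has 3 CCAAT boxes, a word found in 34.6% of windows, and CDK4 has 3 E-boxes, a word found in 7.26%. The C and G content is 81.0% for CCNE1, 74.3% for CDKN1A, 66.0% for CDK4 and 62.3% for CDKN1B. The inhibitors that were higher and the cyclin that was lower therefore all have GC boxes. The steroid receptor half-site AGAACA, held by 14.8% of windows, was searched for on both strands and has no match in any of the 9 windows read. The E2F words searched for, at least 1 of which is held by 3.31% of windows, have no match in them either. These matches describe letters in short windows and do not show that a factor binds there.

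The depth of the 11 grouped cultures ranged from 4999521 to 19704493 counts, with vehicle control replicate 1 the smallest. Levels are CPM, the counts scaled to a common library size after TMM scaling, and 3 counts, taken as the lowest level that could be told from 0, correspond to 0.156 to 0.574 CPM. All 6 epithelial markers were present. Of 7 stromal markers 5 reached 1 CPM in some culture. COL1A1 was at 20.4 to 32.6 CPM, COL3A1 at 41.7 to 131 CPM and COL1A2 at 55.1 to 466 CPM. LUM and THY1 were at no more than 1.40 CPM, and DCN and PDGFRB at no more than 0.157 and 0.323 CPM. The summed immune and endothelial markers reached no more than 1.74 CPM, with MS4A1 and CDH5 at 0 in every culture. The summed stromal level moved with the groups, at 343 to 359 CPM in vehicle control and 127 to 179 CPM in P4 treated cultures, and COL1A2, at up to 466 CPM over all cultures, took the highest level in that list. Its part in the results was not tested. Control replicate 2 stood apart from the others of its group, with a chi-square per degree of freedom over genes of 16.8 and 20.6 against replicates 1 and 3, which gave 5.02 between themselves, and it had the highest CDKN1A and CDKN1C and the lowest CDK6 and CCND2 of the control cultures. No pair of replicates agreed within sampling noise. The labels call the replicates biological without saying whether they came from separate passages, so p-values measure the spread between these cultures.

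P4 treated cultures had more CDKN1A and CDKN1B and less of all 5 cyclins than vehicle control cultures. CDKN1A was 2.71-fold higher, CDKN1B was 2.06-fold higher, and CCND1 fell to 0.447 of the vehicle level. The levels of CDK4 and CDK6 were not called different. Calls rest on the quasi-likelihood test of edgeR with Benjamini-Hochberg adjustment over all genes tested, at an adjusted p under 0.05. In that comparison 2 members were called higher, 5 lower and 3 not called, while 26.6% of the 16540 genes tested were called higher and 26.5% lower. The median log2 fold change was -0.44 over the members and -0.01 over all genes. The CPM ranges of the groups did not overlap for the 7 called members, as for 60.3% of all genes tested. A large share of all genes thus differed, and 7 called of 10 has to be read against that share. Since CPM is a share of each library, less mRNA of a gene per cell and fewer cells that express it cannot be told apart in these bulk samples.

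**Figure D1:**
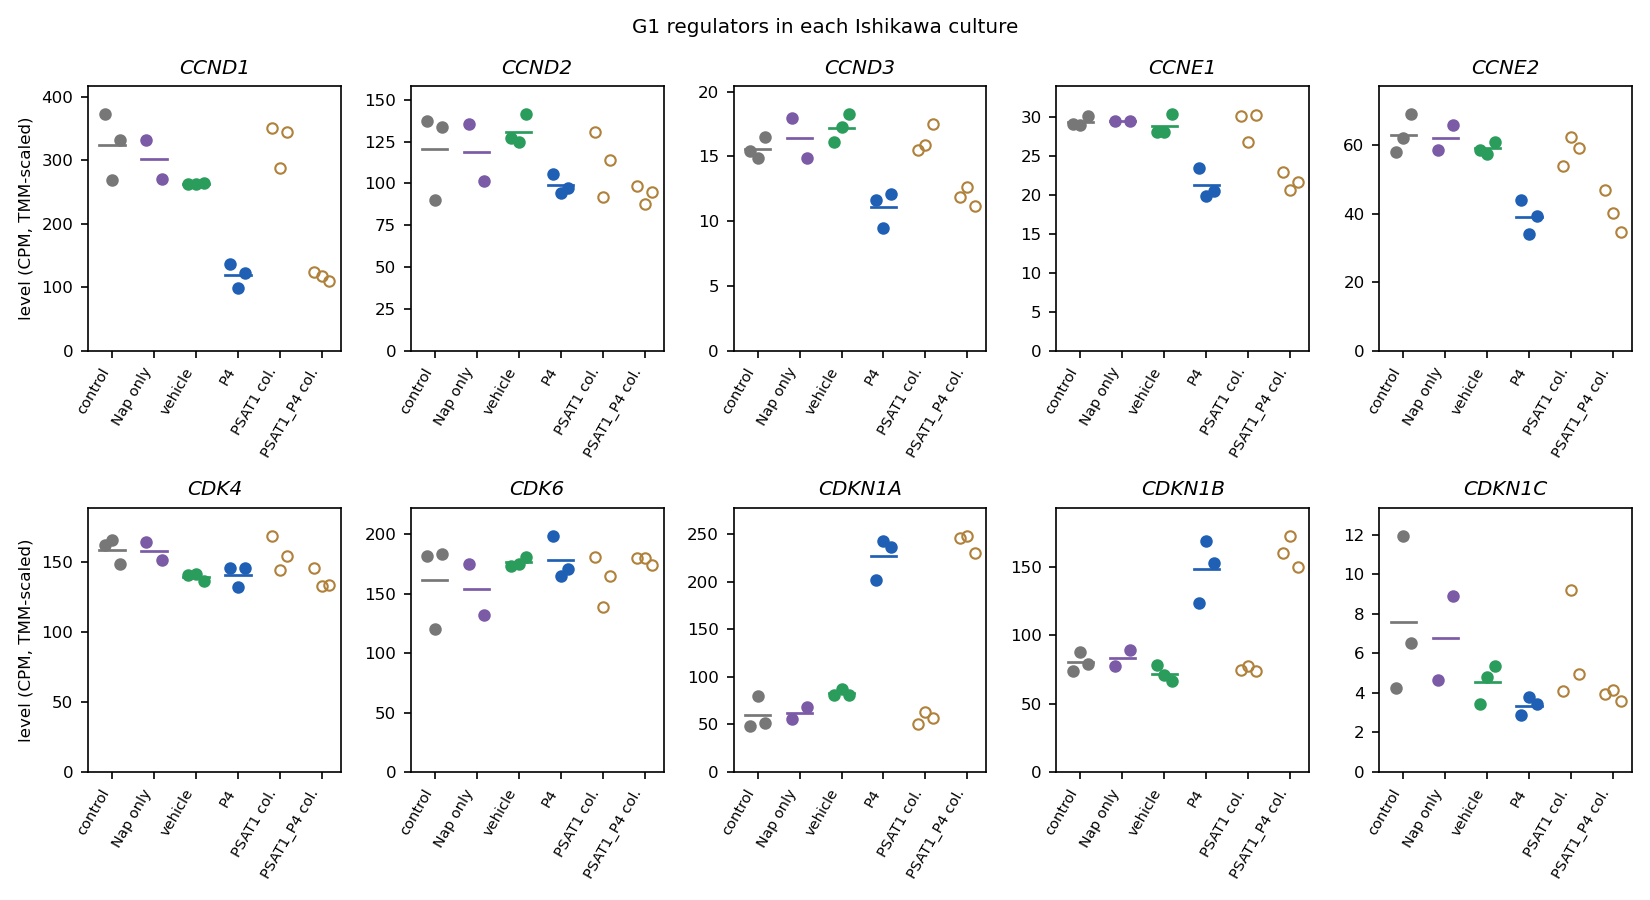
Level (CPM after TMM scaling, linear axis from 0) of each G1 regulator in each culture; filled points are cultures of the 4 groups with a line at the group mean, and open points are the 6 cultures without a group, placed by column name. The 3 P4 treated cultures sit above all other grouped cultures for CDKN1A and CDKN1B and below all of them for CCND1, CCND3, CCNE1 and CCNE2.

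CDKN1A (ENSG00000124762.13, chr6:36676460-36687339 on GRCh38, plus strand) encodes p21, an inhibitor of cyclin-CDK complexes. Its level was 80.8, 87.0 and 81.3 CPM in the vehicle control cultures and 202, 243 and 237 CPM in the P4 treated ones. Every P4 treated culture was above every vehicle control culture by more than the whole spread of either group. The log2 fold change was 1.44 ± 0.08 (SE, n = 3 each, edgeR adjusted p = 4.6e-08), which ranks 399th from the highest of 16540 genes. The control cultures had 48.5, 79.4 and 51.2 CPM, and the Nap only cultures 55.3 and 68.3 CPM. The group means ran up from control (59.7 ± 17.1 CPM, SD) and Nap only (61.8 ± 9.15, n = 2) through vehicle control (83.0 ± 3.45) to P4 treated (227 ± 22.1). The first 2 of these means differ by less than either SD.

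CDKN1B (ENSG00000111276.11, chr12:12715058-12722371, plus strand) encodes p27, which holds CDK2 inactive in resting cells. It was measured at 78.1, 70.7 and 66.7 CPM in vehicle control and at 123, 168 and 153 CPM in P4 treated cultures, with no overlap. This was a log2 fold change of 1.04 ± 0.10 (SE, edgeR adjusted p = 5.2e-06). In the control cultures CDKN1B was at 73.6, 87.97 and 78.8 CPM and in the Nap only cultures at 77.4 and 88.8 CPM. Unlike CDKN1A, its mean was lowest in vehicle control (71.8 ± 5.76 CPM), below control (80.1 ± 7.30) and Nap only (83.1 ± 8.10), and the ranges of these 3 groups overlap, against 148 ± 22.9 CPM in P4 treated cultures. The lowest P4 treated culture, replicate 1, was also the lowest of its group for CDKN1A.

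CDKN1C (ENSG00000129757.13, chr11:2883213-2885773, minus strand) encodes p57, the imprinted member of the family, and was the lowest of the 10 genes in CPM. It had 18, 65 and 67 counts (3.45, 4.79 and 5.39 CPM) in vehicle control and 30, 44 and 45 counts (2.88, 3.78 and 3.43 CPM) in P4 treated cultures. These ranges overlap. The log2 fold change was -0.50 ± 0.21 (SE) and its edgeR adjusted p of 0.061 missed the threshold. That call depends on the settings, with an adjusted p of 0.030 under upper-quartile normalization, 0.049 when every sample had to reach 10 counts, 0.034 without vehicle control replicate 1 and 0.048 without P4 treated replicate 2. In control cultures CDKN1C was at 4.25, 11.9 and 6.54 CPM and in Nap only at 4.64 and 8.92 CPM, so the second replicate of each held the highest level. At 3.36 ± 0.451 CPM the P4 treated cultures had the lowest mean of the 4 groups.

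CCND1 (ENSG00000110092.3, chr11:69641087-69654474, plus strand) encodes cyclin D1, the D-type cyclin that mitogens induce most readily in epithelial cells. Its level was 263, 263 and 265 CPM in vehicle control and 136, 98.0 and 123 CPM in P4 treated cultures. The vehicle control cultures were nearly identical (SD 0.902 CPM), and all P4 treated cultures were below them. The log2 fold change of -1.16 ± 0.10 (SE, edgeR adjusted p = 1.5e-06) was the lowest of the 10 members and ranked 869th from the lowest of 16540 genes. Control cultures had 373, 269 and 333 CPM and Nap only cultures 332 and 271 CPM, so that the means ran down from control (325 ± 52.3 CPM) over Nap only (302 ± 42.7) and vehicle control (264 ± 0.902) to P4 treated (119 ± 19.3). Control and Nap only do not differ beyond their spread. LTO1 on the opposite strand covers 10.3% of the exonic bases of CCND1 and was at 12.5 ± 1.95 CPM in vehicle control and 14.5 ± 0.415 CPM in P4 treated cultures.

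CCND2 (ENSG00000118971.8, chr12:4273772-4305350, plus strand) encodes cyclin D2. It was at 127, 125 and 141 CPM in vehicle control and at 106, 94.2 and 97.6 CPM in P4 treated cultures, without overlap. The fall of 0.42 on the log2 scale (SE 0.08, edgeR adjusted p = 0.00055) had the smallest estimate of the 5 cyclins. AC008012.1, a gene on the same strand that covers 13.8% of the exonic bases of CCND2, was at 0 in every vehicle control culture and at no more than 0.0961 CPM in P4 treated cultures. CCND2 in control replicate 2 (90.3 CPM) was below all P4 treated cultures, while replicates 1 and 3 had 138 and 134 CPM. The Nap only cultures had 136 and 101 CPM.

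CCND3 (ENSG00000112576.12, chr6:41934933-42050357, minus strand) encodes cyclin D3 and had the fewest counts of the cyclins. The vehicle control cultures held 16.1, 17.3 and 18.3 CPM and the P4 treated ones 11.6, 9.44 and 12.1 CPM, again without overlap. This gave a log2 fold change of -0.66 ± 0.13 (SE, edgeR adjusted p = 0.00075). Control (15.6 ± 0.834 CPM) and Nap only (16.4 ± 2.20) means were near that of vehicle control (17.2 ± 1.09).

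CCNE1 (ENSG00000105173.14, chr19:29811898-29824308, plus strand) encodes cyclin E1, the activator of CDK2 at the G1/S transition and itself an E2F target. It was at 28.1, 28.1 and 30.4 CPM in vehicle control and at 23.4, 19.8 and 20.6 CPM in P4 treated cultures, and the groups did not overlap. CCNE1 thus had a log2 fold change of -0.46 ± 0.10 (SE, edgeR adjusted p = 0.0020). The control and Nap only cultures all lay between 28.98 and 30.2 CPM, the narrowest range of any member relative to its level.

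CCNE2 (ENSG00000175305.17, chr8:94879770-94896678, minus strand) encodes cyclin E2, the paralogue with the same partner. Its level was 58.6, 57.6 and 61.1 CPM in vehicle control and 44.1, 33.99 and 39.3 CPM in P4 treated cultures. The groups did not overlap and the log2 fold change was -0.61 ± 0.10 (SE, edgeR adjusted p = 2.0e-04). In control cultures CCNE2 was at 58.0, 62.2 and 69.1 CPM and in Nap only cultures at 58.6 and 65.9 CPM. Of its exonic bases 37.0% lie under exons of INTS8 on the opposite strand, and the strand setting of the counting is not given in the sources used here. INTS8, a subunit of the Integrator complex, had 78.7 ± 4.38 CPM in vehicle control and 70.4 ± 5.25 CPM in P4 treated cultures.

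The kinases that the D-type cyclins activate were not called between P4 treated and vehicle control cultures. CDK4 (ENSG00000135446.17, chr12:57747727-57756013, minus strand) was at 141, 142 and 137 CPM in vehicle control and at 146, 132 and 146 CPM in P4 treated cultures. CDK6 (ENSG00000105810.9, chr7:92604921-92836594, minus strand) was at 174, 175 and 181 CPM in vehicle control and at 199, 165 and 171 CPM in P4 treated cultures. For both genes the ranges overlap and the log2 fold change was 0.00, with SE 0.07 for CDK4 (edgeR adjusted p = 0.97) and 0.08 for CDK6 (adjusted p = 1.0). An interval of ±1.96 SE runs from -0.13 to 0.13 for CDK4 and from -0.15 to 0.15 for CDK6, so a change of the size seen for any of the 5 cyclins lies outside it. Exons of TSPAN31 on the opposite strand cover 43.2% of the exonic bases of CDK4, and TSPAN31 itself was at 6.33 ± 0.519 CPM in vehicle control and 7.52 ± 0.304 CPM in P4 treated cultures.

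**Figure D2:**
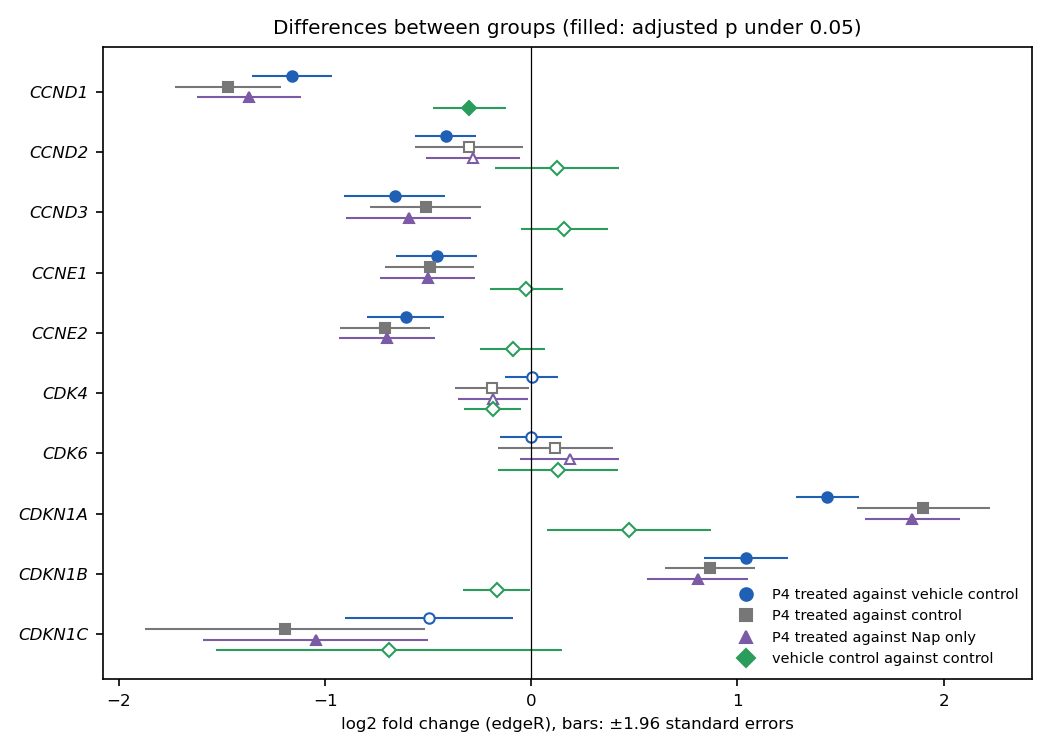
Log2 fold change of each G1 regulator in 4 comparisons (x axis, edgeR), with bars of ±1.96 standard errors; filled symbols have an adjusted p under 0.05. In the 3 comparisons of P4 treated cultures CDKN1A and CDKN1B lie to the right of 0 and the 5 cyclins to the left, and CDK4 and CDK6 lie at 0.00 against vehicle control.

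Per length of transcript, the makeup of the families also differed between groups. RPKM divides the level by the exonic length of a gene, so it allows levels of different genes to be compared. CCND1 held 72.7%, 72.7% and 70.5% of the summed RPKM of the 3 D-type cyclins in vehicle control and 62.6%, 57.8% and 61.8% in P4 treated cultures. CCND2 held 24.1% ± 1.15 (SD, n = 3) and 34.5% ± 2.61, and CCND3 held 3.91% ± 0.191 and 4.72% ± 0.319. The share of CCND3 depends on the length used, since with the longest transcript in place of all exons it was 8.11% and 9.72%. CCND1 thus stayed the most abundant D-type cyclin mRNA in every culture, at a smaller share after P4. The summed D-type cyclin level was 75.8 ± 1.59 RPKM in vehicle control and 40.4 ± 4.97 RPKM in P4 treated cultures.

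The summed CIP/KIP level moved the other way, from 54.6 ± 1.77 RPKM in vehicle control to 129 ± 15.5 RPKM in P4 treated cultures. CDKN1A held 49.9% ± 1.99 of that sum in vehicle control and 58.0% ± 1.53 after P4, CDKN1B 46.8% ± 2.72 and 40.9% ± 1.51, and CDKN1C 3.37% ± 0.824 and 1.05% ± 0.0228. The ratio of the CIP/KIP sum to the D-type cyclin sum was 0.742, 0.743 and 0.677 for vehicle control and 2.48, 4.02 and 3.24 for P4 treated cultures. It was 0.442, 0.877 and 0.525 in control and 0.524 and 0.790 in Nap only cultures. The inhibitor mRNAs were thus below the D-type cyclin mRNAs in all 8 cultures without P4 and above them in the 3 with P4. These shares and sums are descriptions without a test, and they concern mRNA, not protein. With the length of the longest transcript in place of all exons, the mean ratio was 0.746 for vehicle control and 3.38 for P4 treated cultures.

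**Figure D3:**
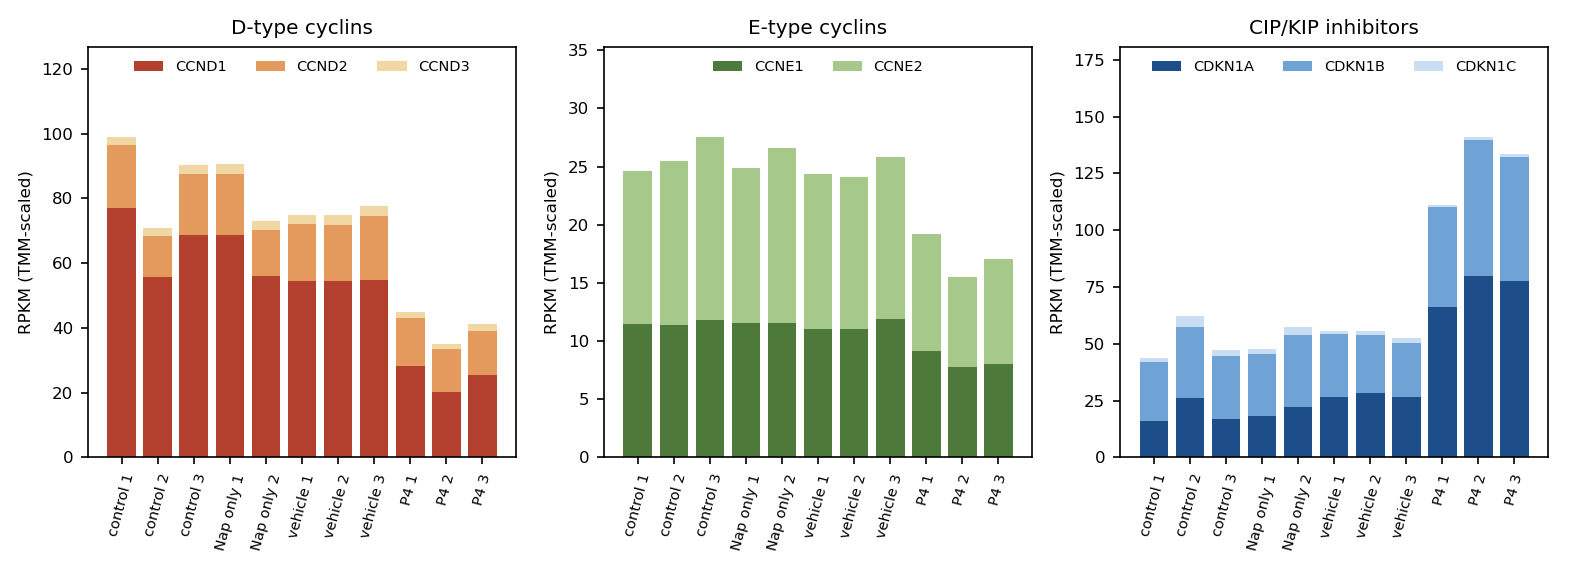
RPKM (TMM-scaled, bars from 0) of the D-type cyclins, the E-type cyclins and the CIP/KIP inhibitors, stacked, in each of the 11 grouped cultures. The D-type cyclin bars fall to between 35.1 and 45.0 RPKM in the 3 P4 treated cultures, and the CIP/KIP bars rise to between 111 and 141 RPKM.

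Against untreated control cultures, P4 treated cultures again had 2 members higher, 5 lower and 3 not called, where 26.8% of the 16620 genes tested were higher and 28.0% lower. The comparisons of P4 with vehicle control, control and Nap only share the P4 treated cultures and are not independent. CDKN1A was 3.74-fold and CDKN1B 1.82-fold higher than in control (log2 fold change 1.90 ± 0.16 and 0.87 ± 0.11, SE, edgeR adjusted p = 1.3e-06 and 4.0e-06). CCND1 was lower by a log2 fold change of -1.47 ± 0.13 (adjusted p = 1.8e-07), CCNE2 by -0.71 ± 0.11 (3.4e-05), CCND3 by -0.51 ± 0.14 (0.0039) and CCNE1 by -0.49 ± 0.11 (0.0010). CDKN1C was called lower here, at -1.20 ± 0.35 (edgeR adjusted p = 0.013). That call was lost when any 1 P4 treated culture was left out, with adjusted p values of 0.17, 0.12 and 0.053 in the fits without replicate 1, 2 and 3, while the log2 fold changes were -1.09, -1.28 and -1.20. Without control replicate 2, which had 11.9 CPM of CDKN1C, its log2 fold change was -0.68 (adjusted p = 0.030). CCND2 was not called at -0.30 ± 0.13 (adjusted p = 0.067), but fell by 0.48 on the log2 scale without control replicate 2 (0.00099). CDKN1A rose by 2.16 without that culture. CDK4 and CDK6 were not called, at -0.19 ± 0.09 and 0.12 ± 0.14 (edgeR adjusted p = 0.083 and 0.51). The CPM ranges of CDK4 did not overlap, but the share of all genes without overlap was not counted in this comparison. CDK4 was called lower with upper-quartile normalization (-0.26, adjusted p = 0.023) and without control replicate 3 (-0.24, adjusted p = 0.048).

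Against Nap only, 2 members were higher in P4 treated cultures, 5 lower and 3 not called, with 24.8% of 16987 genes higher and 24.9% lower. On the log2 scale CDKN1A was higher by 1.85 ± 0.12 (SE, n = 3 and 2) and CDKN1B by 0.81 ± 0.13 (edgeR adjusted p = 7.0e-07 and 3.0e-04). The difference was -1.37 ± 0.13 for CCND1, -0.70 ± 0.12 for CCNE2, -0.59 ± 0.15 for CCND3 and -0.50 ± 0.12 for CCNE1, with adjusted p values of 9.4e-06, 5.8e-04, 0.0075 and 0.0041. CDK4 and CCND2 were not called, at -0.19 ± 0.09 and -0.28 ± 0.12 (adjusted p = 0.092 and 0.064). The CPM ranges of CDK4 did not overlap, and here too the share of all genes without overlap was not counted. With upper-quartile normalization CDK4 and CCND2 were called lower (-0.26 and -0.36, edgeR adjusted p = 0.025 and 0.024). CCND3 lost its call without Nap only replicate 1 (-0.46, adjusted p = 0.11). CDKN1C, at -1.05 ± 0.28 (0.0085), lost its call without Nap only replicate 2 (-0.48, adjusted p = 0.23) and in the fit of all 4 groups (-1.02, adjusted p = 0.075).

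The vehicle itself was compared with untreated cells. Of the 10 members, 0 were higher and 1 was lower in vehicle control than in control, against 11.9% of 16673 genes higher and 10.7% lower. CCND1 was the member called, at -0.30 ± 0.09 (SE, edgeR adjusted p = 0.022), and its call was lost in 5 of the 6 fits that left out 1 culture and in the fit of all 4 groups. CDKN1A was 1.39-fold higher in mean, with all 3 vehicle control cultures above all 3 control cultures by CPM, but control replicate 2 (79.4 CPM) reached almost to the lowest vehicle control culture (80.8 CPM) and the adjusted p was 0.16. Without that replicate the log2 fold change was 0.74 ± 0.08 (edgeR adjusted p = 8.0e-10). Without a filter on low counts CDKN1A was called higher (0.45, adjusted p = 5.6e-04) and CDKN1C lower (-0.71, adjusted p = 0.013). CDKN1C was also called lower without control replicate 1 (-0.99, edgeR adjusted p = 0.0069), but not without control replicate 2 (-0.16, 0.62). CDK4 was at -0.19 ± 0.07 with an adjusted p of 0.061, and its CPM ranges did not overlap. The share of all genes without overlap was not counted in this comparison. CDK4 was called lower by DESeq2 (-0.20, adjusted p = 0.044) and by edgeR without control replicate 3 (-0.23, adjusted p = 0.016). The other fits that left out 1 culture did not call it.

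Against Nap only, vehicle control cultures had 1 member higher and 3 lower, with 12.7% of 16935 genes higher and 11.2% lower. CDKN1A was higher by 0.43 ± 0.08 on the log2 scale (edgeR adjusted p = 5.6e-04). CCND1, CDK4 and CDKN1B were lower, at -0.19, -0.18 and -0.23 on that scale (adjusted p = 0.041, 0.030 and 0.031). None of the 4 calls held in the fit of all 4 groups, where the log2 fold changes of CDKN1A, CCND1, CDK4 and CDKN1B were 0.43, -0.19, -0.18 and -0.22 with larger SEs (0.19, 0.13, 0.08 and 0.12). Nap only differed from control in 0 of the 10 members and in 0 of 17166 genes by edgeR (0.0%), where 217 genes had an unadjusted p under 0.05 and DESeq2 called 1 gene. No member had an unadjusted p under 0.05 there, and their log2 fold changes ran from -0.15 ± 0.62 (CDKN1C) to 0.08 ± 0.13 (CCND3). With the replicate number as a block, 42 genes and 0 members were called in that comparison.

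Other genes of the pathway were counted from lists of genes named for their known roles, to be read against the 26.6% of all genes that were higher and the 26.5% that were lower between P4 treated and vehicle control cultures. The RB and E2F list, the targets of the cyclin D kinases and their partners, was mixed between P4 treated and vehicle control cultures, with 7 of 18 higher, 6 lower and 5 not called (median log2 fold change 0.02). LIN52 and LIN54, subunits of the MuvB core of the DREAM repressor complex, were higher by 0.62 ± 0.12 and 0.46 ± 0.07 (SE, edgeR adjusted p = 7.2e-04 and 1.8e-04). TFDP1, the usual dimer partner of E2F factors, was at 239 ± 10.9 CPM in vehicle control and 157 ± 17.2 CPM in P4 treated cultures (adjusted p = 5.0e-05). MYBL2, which joins MuvB in place of the repressors in dividing cells, fell by 0.65 ± 0.10 on the log2 scale (1.9e-04).

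Of the other CDKs and their activators, 12 of 13 passed the filter, of which 3 were higher and 7 lower (median -0.46). CCNA2 and CCNB1, the cyclins of S phase and mitosis, were lower by log2 fold changes of -0.83 ± 0.09 and -0.71 ± 0.08 (SE, edgeR adjusted p = 1.2e-05 and 1.7e-05). CDK7 and CCNH, which form the kinase that activates other CDKs, were higher by 0.62 ± 0.11 and 0.72 ± 0.09 (5.8e-04 and 4.8e-05). The list of INK4 inhibitors, which bind CDK4 and CDK6 alone, and of kinases that phosphorylate CDKs had 1 of 7 higher and 3 lower (median -0.31). Its INK4 members moved apart, with CDKN2B (p15) at 4.30 ± 0.109 CPM in vehicle control and 8.97 ± 1.22 CPM in P4 treated cultures (adjusted p = 1.9e-04), and CDKN2C (p18) at 18.7 ± 2.82 and 8.82 ± 2.32 CPM (2.4e-04). PKMYT1, a kinase that inhibits CDK1, fell by 0.73 ± 0.12 on the log2 scale (2.7e-04).

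The ubiquitin ligase list, whose members mark G1 cyclins or CIP/KIP inhibitors for degradation, had 4 of 16 higher and 6 lower (median -0.02). SKP2, the F-box protein that directs p27 to the proteasome, was at 111 ± 3.29 CPM in vehicle control and 64.9 ± 6.71 CPM in P4 treated cultures (log2 fold change -0.79 ± 0.08, SE, edgeR adjusted p = 7.3e-06). DTL, the substrate receptor for p21 in S phase, fell by 0.50 ± 0.07 on the log2 scale (1.2e-04). FBXW7, the F-box protein for cyclin E, was higher by 0.47 ± 0.08 (3.8e-04), as was the ubiquitin-conjugating enzyme CDC34 by 0.58 ± 0.12 (0.0017). SKP2 and DTL, named for the smallest adjusted p among the lower genes of this mixed list, thus fell where CDKN1B and CDKN1A mRNA rose. Whether the degradation of p27 or p21 differed between these cultures was not tested.

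Of 28 transcription factors known to act on G1 regulator genes, 17 were higher and 5 lower (median log2 fold change 0.43). In vehicle control against control, 11 of the 27 tested were already higher and 1 lower, where 11.9% and 10.7% of all genes were. CEBPB, which progesterone and stress pathways are known to induce, was at 14.7 ± 1.84 CPM in vehicle control and 57.1 ± 7.24 CPM in P4 treated cultures (edgeR adjusted p = 9.2e-08). MXD4, a partner of MAX, fell by 1.26 ± 0.09 on the log2 scale (SE, adjusted p = 5.1e-07), and CTNNB1, which encodes beta-catenin, by 0.35 ± 0.06 (2.3e-04).

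Proliferation markers moved with the cyclins. Of 20 markers, 19 were lower in P4 treated than in vehicle control cultures and 0 were higher (median log2 fold change -0.65). MKI67 was at 641 ± 89.4 CPM in vehicle control and 257 ± 19.8 CPM after P4 (edgeR adjusted p = 4.6e-07), and MCM4, a subunit of the replicative helicase, at 266 ± 9.22 and 124 ± 12.7 CPM (3.2e-07). In control and Nap only cultures MKI67 was at 499 ± 22.7 and 460 ± 9.57 CPM, and MCM4 at 300 ± 8.68 and 295 ± 15.0 CPM. The vehicle control level was thus above control for MKI67 and below it for MCM4. The part of cell-cycle distribution in the levels of the G1 regulators was not tested. In vehicle control against control, 3 of these 20 markers were higher and 4 lower.

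**Figure D4:**
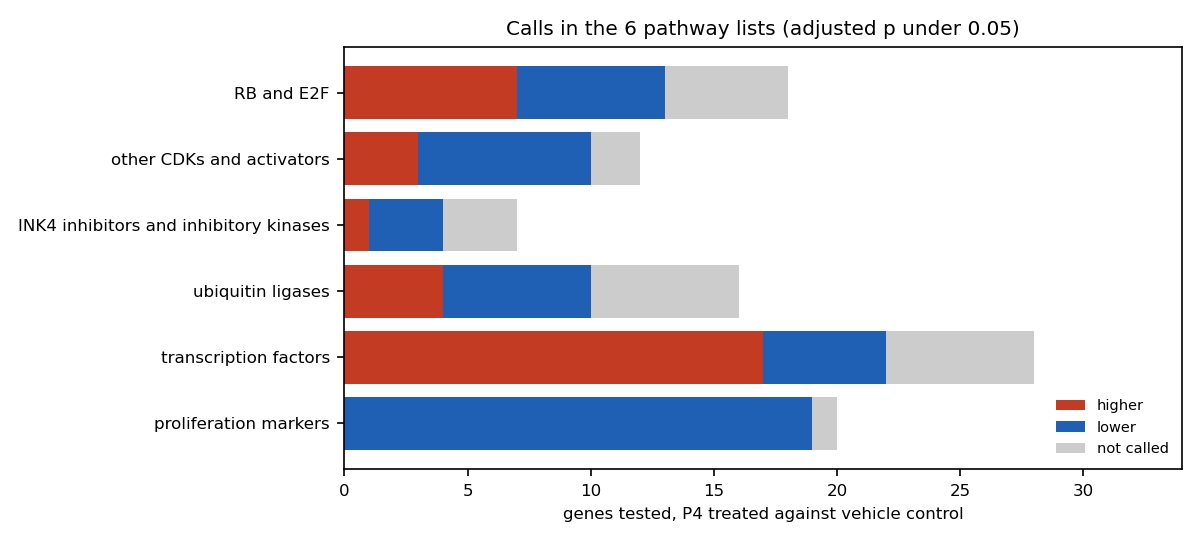
Number of genes called higher, called lower and not called (edgeR, adjusted p under 0.05) in P4 treated against vehicle control cultures for each of 6 lists of pathway genes. The proliferation markers have 19 of 20 genes lower, the transcription factors 17 of 28 higher, and the other lists are mixed.

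The members differed in how they varied across all 11 grouped cultures, which is a description since the treatment sets most of the variation. On log2 CPM, CDKN1A and CCND1 had a Pearson r of -0.99, CCNE1 and CCNE2 of 0.98, and CDKN1A and CDKN1B of 0.89. CDK6 had r between -0.24 and 0.13 to CCND1, CCND3, both E-type cyclins, CDKN1A and CDKN1B, 0.61 to CCND2, -0.36 to CDK4 and -0.82 to CDKN1C. Control replicate 2 had the lowest CDK6 (120.2 CPM) and the highest CDKN1C (11.9 CPM). Nap only replicate 2 had the second lowest CDK6 (132 CPM) and the second highest CDKN1C (8.92 CPM).

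The 2 protein-coding genes most like each of the 3 members with the largest changes were sought among 12844 genes over the 11 cultures. For CDKN1A they were SAT1, which encodes a polyamine acetyltransferase (r = 0.992), and FGFR1, a fibroblast growth factor receptor gene (0.991). For CCND1 they were MYCBP (0.991) and the ubiquitin ligase gene RFWD3 (0.988), and for CDKN1B they were PPP1R3B, which encodes a regulatory subunit of protein phosphatase 1, and the zinc finger gene ZNF140 (both 0.992). SAT1 was at 107 ± 3.58 CPM in vehicle control and 295 ± 20.3 CPM in P4 treated cultures. MYCBP was at 20.5 ± 1.09 and 8.12 ± 1.63 CPM.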

How the data were processed

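RNA of Ishikawa cultures was sequenced as stranded total RNA, single end. After trimming (Cutadapt) and a quality filter, the authors mapped reads with Subread, counted them per gene by featureCounts on GENCODE 31, and deposited these raw counts. Tool versions and the strand setting are not given in the sources used here. All 17 columns were read, and those of the 6 cultures without a group gave levels only and entered no comparison.

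Groups came from the sample labels. Each comparison was fitted on its 2 groups with edgeR 4.0.16 (R 4.3.3): TMM, filterByExpr at a minimum count of 10, robust quasi-likelihood, and Benjamini-Hochberg adjustment over all genes tested. The SE is the log2 fold change over the root of F. The script was tested on simulated data with few changed genes, as many up as down. That test does not cover the many changes called in the comparisons with P4. Intervals of ±1.96 SE include the spread between cultures, whereas the floors of 3 counts cover counting error only. Alternatives were DESeq2 1.42.0, 2 further normalizations, other filters, a fit of all 4 groups, a replicate block and leaving out each culture. Names and exonic lengths came from GENCODE 29 on GRCh38, which names 58587 of the 60662 genes, 43963 in the same version. Another 2054 genes were named from a table of names. Coordinates are those of GENCODE 29. Promoter sequences came from RefSeq.

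The members and lists were chosen with earlier results of these data known. Named besides the 10 members were, per list, the 2 genes of smallest adjusted p in each direction of P4 treated against vehicle control, the 2 genes most like each of the 3 members of largest change, genes that overlap a member, and cell type markers. Some genes and a list that this rule covers are not reported here. Control replicate 2 and COL1A2 were singled out after their values were seen. The number of cultures, 2 or 3 a group, limits the precision.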

Additional observations from a re-analysis of the deposited data

Results flagged for a closer look

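The 6 cultures without a group held a signal in 2 of the inhibitors. In the 3 libraries whose columns are named PSAT1_P4, the lowest level of CDKN1A was 230 CPM and the lowest of CDKN1B was 149 CPM, above the highest control culture for each gene (79.4 and 87.97 CPM). In the 3 libraries whose columns are named PSAT1, CDKN1A was at 50.8, 62.6 and 56.9 CPM. Titles and column names of these libraries contradict each other, so which of them received progesterone cannot be told from the labels, and the difference was not tested.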

How the results depend on the processing

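Between P4 treated and vehicle control cultures, CDKN1A, CDKN1B and the 5 cyclins kept their direction and their call under every alternative run. The values of members that were not called changed sign as follows, on the log2 scale. With upper-quartile normalization CDK4 and CDK6 were at -0.084 and -0.086 in that comparison, and CCNE2 and CDK4 at 0.0078 and 0.012 in Nap only against control. With at least 10 counts in every sample, CDK4 and CDK6 were at -0.0061 and -0.0095 in P4 treated against vehicle control. Leaving out 1 culture gave from -0.014 to 0.059 for CDK4 and from -0.081 to 0.062 for CDK6 in P4 treated against vehicle control, and from -0.061 to 0.22 for CDK6 in P4 treated against control. In vehicle control against control it gave from -0.050 to 0.23 for CCND2 and from -0.050 to 0.23 for CDK6. In vehicle control against Nap only it gave from -0.063 to 0.37 for CCND2, from -0.061 to 0.22 for CCND3, from -0.072 to 0.00067 for CCNE1, from -0.0022 to 0.41 for CDK6 and from -0.91 to 0.024 for CDKN1C. In Nap only against control it gave from -0.25 to 0.033 for CCND1, from -0.24 to 0.18 for CCND2, from -0.055 to 0.21 for CCND3, from -0.10 to 0.073 for CCNE2, from -0.063 to 0.051 for CDK4, from -0.28 to 0.12 for CDK6, from -0.11 to 0.32 for CDKN1A, from -0.048 to 0.16 for CDKN1B and from -0.72 to 0.38 for CDKN1C. Without replicate 2 of both groups, an alternative chosen after seeing the data, CCND2 was at 0.0033, CCNE1 at -0.0042 and CDK4 at 0.082 there, with 8 genes called. Where 1 culture was left in a group, its spread was taken from the other cultures.

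The number of members called in P4 treated against control was 9 with upper-quartile normalization, 8 without a filter and 6 to 8 without 1 culture. Of all genes, 9159 of 16620 were called there with upper-quartile normalization, 9686 of 33728 without a filter and 7617 to 9709 without 1 culture. In P4 treated against Nap only the number of members called was 9 with upper-quartile normalization, 8 without a filter and 6 in the fit of all 4 groups. Of all genes, 8522 of 16987, 8725 of 32509 and 9266 of 17914 were called in these 3 fits. Without 1 P4 treated culture, 7 to 9 members and 6473 to 9719 of all genes were called. In both comparisons, CCND2 and CDK4 were gained with upper-quartile normalization and CCND2 without a filter. Against Nap only, CCND2 and CDK4 were also gained without P4 treated replicate 1 (-0.32 and -0.20, edgeR adjusted p = 0.012 and 0.039). The number of members called in vehicle control against control was 2 with DESeq2, 3 without a filter, 0 in the fit of all 4 groups and 0 to 2 without 1 culture. Of all genes, 2611 of 33709 were called there with DESeq2, 3799 of 33709 without a filter and 3110 of 17914 in the fit of all 4 groups. In vehicle control against Nap only the number of members called was 1 with DESeq2, 0 in the fit of all 4 groups and 1 to 3 without 1 vehicle control culture. Over all genes, Nap only against control gave 1 call with DESeq2, 3 without a filter, 1 in the fit of all 4 groups and 0 to 5 without 1 culture. Vehicle control against control gave 1908 to 3995 calls and P4 treated against Nap only 5502 to 9719 calls without 1 culture. Vehicle control against Nap only gave 2130 calls with DESeq2, 1912 in the fit of all 4 groups and 2355 to 3803 without 1 culture. The smaller counts come with fewer cultures in the fit or another estimate of the spread, and the cause of the others was not tested.

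With the length of the longest transcript, the share of D-type cyclin RPKM held by CCND1 was 75.0%, 73.6%, 69.1% and 57.9% in control, Nap only, vehicle control and P4 treated cultures. That of CCND3 was 6.57%, 7.23%, 8.11% and 9.72%, and that of CCND2 in vehicle control was 22.8%. The order of the groups was kept.

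The groups share replicate numbers, but they were not taken to pair the samples. Deviations of cultures with the same number correlated at 0.032, 0.047 and -0.043 between P4 treated and vehicle control, at -0.068, -0.085 and -0.049 between P4 treated and control, and at 0.057, 0.076 and -0.0034 between vehicle control and control. Nap only and control, with 2 pairs, had 0.26 and 0.32, and cultures of different numbers there had from -0.32 to 0.098. Deviations of the 2 Nap only cultures mirror each other, so these values are not separate. With the replicate number as a block, 7 members and 8934 of all 16540 genes were called in P4 treated against vehicle control, and CDK6 was at -0.0079. In vehicle control against control, 3 members and 4360 of all 16673 genes were called. These members were CCND1, CDKN1A (0.49, edgeR adjusted p = 2.2e-04) and CDKN1C (-0.75, edgeR adjusted p = 0.0033). The block called 42 genes in Nap only against control, where CCND2, CCNE2, CDK6 and CDKN1A were at 0.076, 0.056, 0.047 and -0.025. In vehicle control against Nap only the block ended the calls of CCND1, CDK4 and CDKN1B (edgeR adjusted p = 0.053, 0.12 and 0.10) and called CDK6 (0.21, adjusted p = 0.030) and CDKN1C (-0.76, adjusted p = 0.0068). In P4 treated against control it called CCND2 (-0.28, adjusted p = 0.036), and it changed no other call of a member. Depth limits CDKN1C most, with 18 counts in the smallest library.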

Other observations

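The other members in the libraries without a group are given by column name. CCND1 was at 124, 118 and 109 CPM in the columns named PSAT1_P4 and at 351, 287 and 344 CPM in those named PSAT1. CCND3 was at 11.9, 12.6 and 11.1 CPM and at 15.5, 15.9 and 17.5 CPM. CCNE1 was at 22.97, 20.7 and 21.7 CPM and at 30.1, 26.8 and 30.4 CPM, and CCNE2 at 47.0, 40.1 and 34.6 CPM and at 53.9, 62.3 and 59.3 CPM. CCND2 (87.8 to 98.6 CPM and 91.8 to 131 CPM) and CDK4 (133 to 146 CPM and 145 to 169 CPM) had ranges that overlap or nearly touch. CDK6 was at 180, 180.2 and 174 CPM in the columns named PSAT1_P4. In the columns named PSAT1 it was at 181, 139 and 164 CPM, with CDKN1C at 4.08, 9.20 and 4.94 CPM. The second library of that name thus had low CDK6 and high CDKN1C, as had the second control and the second Nap only culture.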
